A study of Homo sapiens with 4 samples.

Results

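The genes described here encode factors that start and end protein synthesis: EIF1AX, EIF2S1, EIF2S2, EIF2B1, EIF3B, EIF3E, EIF3H and GSPT1. They were taken by gene symbol, current or older, from the value table, which gave 8 genes of 3954 named genes measured on all 4 arrays. They carried 17 features, of which 16 had a value on each of the 4 arrays and 1, of EIF2S1, had none. The genes were picked with their response to MYC siRNA known, so their log2 ratios against control are given as a description, without a test.

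RNA came from OCI-Ly10, an established human lymphoma line that models the activated B-cell form of diffuse large B-cell lymphoma. Every array set cells electroporated with a 4 uM siRNA pool against c-myc (Cy5) against control cells (Cy3) that went through the same electroporation. The control cells had received a nonspecific siRNA against Renilla luciferase on the arrays at 8 h and 24 h, and Solution T with no siRNA on those at 6 h and 24 h. There was 1 array for each control at each time, 0 arrays had the dyes swapped, and the labels name neither separate cultures nor a second siRNA sequence. The log2 ratios were read as MYC siRNA over control, a direction that is likely from the dyes and from MYC itself but not stated in the sources used here.

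Translation begins when eIF2, a GTPase, brings the initiator tRNA to the small ribosomal subunit. There eIF1A and the large eIF3 complex prepare the subunit to scan the mRNA for a start codon. After start codon recognition eIF2 is left with GDP and is recharged by its exchange factor eIF2B, the step that stress kinases block by phosphorylating eIF2. At a stop codon eRF3, another GTPase, works with eRF1 to release the finished chain. MYC is a transcription factor widely known to act on genes of ribosome production and protein synthesis.

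To show the DNA in front of the genes, the 250 bases before the RefSeq start were taken for the 5 of the 8 that had a window, 6 windows in all since GSPT1 has 2 starts. The 3 genes with the lowest mean ratios are printed, GSPT1 with its downstream window only, and EIF2B1 was added for its repeated CGGAAG. Capitals mark the GC box GGGCGG and the ETS core CGGAAG on either strand. The windows of EIF2S1 and of the upstream start of GSPT1, not printed, hold neither of these motifs.
EIF1AX (GRCh38.p14, chrX:20141839-20142088, minus strand): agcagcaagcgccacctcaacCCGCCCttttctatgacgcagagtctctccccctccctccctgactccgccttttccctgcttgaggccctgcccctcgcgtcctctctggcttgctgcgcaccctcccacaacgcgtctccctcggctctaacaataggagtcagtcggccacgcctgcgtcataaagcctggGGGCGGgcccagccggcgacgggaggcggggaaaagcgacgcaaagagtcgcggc
GSPT1 (GRCh38.p14, chr16:11915957-11916206, minus strand): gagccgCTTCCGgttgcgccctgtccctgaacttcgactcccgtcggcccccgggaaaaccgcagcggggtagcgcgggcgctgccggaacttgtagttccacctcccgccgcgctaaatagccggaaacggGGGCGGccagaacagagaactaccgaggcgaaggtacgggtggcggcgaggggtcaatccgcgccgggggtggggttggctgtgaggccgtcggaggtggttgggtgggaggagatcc
EIF3B (GRCh38.p14, chr7:2354577-2354826, plus strand): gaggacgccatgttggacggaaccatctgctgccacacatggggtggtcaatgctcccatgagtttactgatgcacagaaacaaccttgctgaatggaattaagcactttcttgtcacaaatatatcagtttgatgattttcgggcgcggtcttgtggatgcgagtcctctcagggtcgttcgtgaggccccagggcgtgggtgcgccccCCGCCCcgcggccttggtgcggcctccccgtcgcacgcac
EIF2B1 (GRCh38.p14, chr12:123633687-123633936, minus strand): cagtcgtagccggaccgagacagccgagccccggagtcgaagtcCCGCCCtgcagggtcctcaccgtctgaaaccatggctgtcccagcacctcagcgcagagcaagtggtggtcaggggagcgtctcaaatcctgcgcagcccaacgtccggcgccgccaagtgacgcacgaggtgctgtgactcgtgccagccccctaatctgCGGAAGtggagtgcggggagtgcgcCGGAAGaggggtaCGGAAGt

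The E-box CACGTG, the motif MYC is best known to bind, was searched on both strands and found in 0 of the 6 windows, against 6.34% of 35116 RefSeq windows of the same length. The related CACGCG was found in 0 of the 6 and in 9.72% of all windows. The GC box GGGCGG lay in 4 of the 6 (42.6% of all), with 2 copies before EIF1AX, and CGGAAG in 2 of the 6 (16.5% of all), with 3 copies before EIF2B1 and 1 before GSPT1. CCAAT was in 0 of the 6 (32% of all) and TATAAA in 1 of the 6, the upstream start of GSPT1 (10.7% of all). These are matches of letters in short windows and do not show where a factor binds.

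All 8 genes lay below 0 on all 4 arrays, 32 of 32 gene values, where 23.3% of the 6798 rows of the table did so. Their mean log2 ratios lay between -0.68 and -0.31 (median -0.41), and the median over all rows was -0.003. EIF1AX stood at the low end and EIF3H at the high end. In the fit with limma over all rows, 8 of 8 were past an adjusted p of 0.05 in the lower direction, beside 10.2% of all rows. That contrast is the one the genes were picked with, so nothing is read from the count. Leaving out an array against control siRNA kept 3 (8 h left out) or 0 (24 h left out) past the threshold, leaving out an array against no siRNA 0 (6 h) or 2 (24 h).

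**Figure D1:**
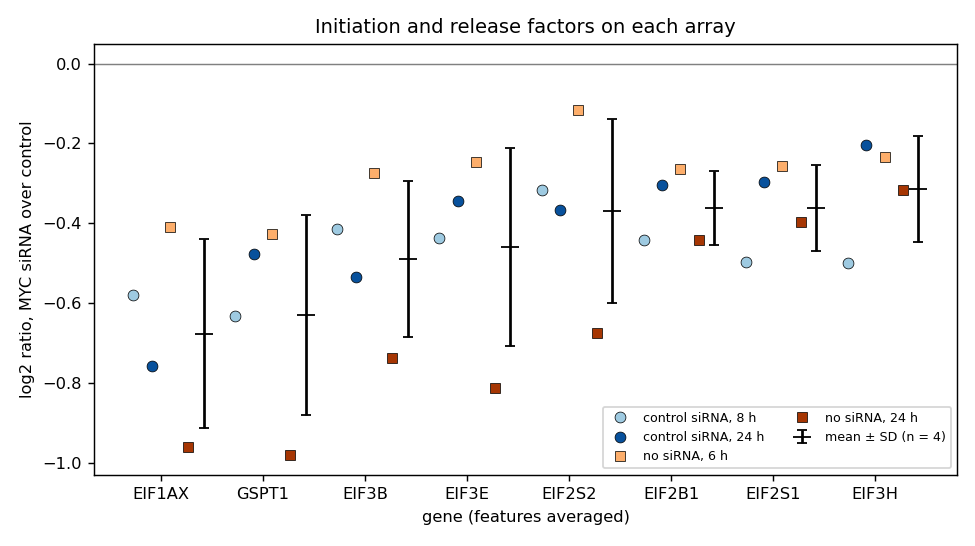
Log2 ratio of MYC siRNA over control (y axis) for the 8 genes (x axis, lowest mean first), features averaged per gene. Circles are arrays against control siRNA and squares those against no siRNA, light for the early and dark for the 24 h array, and black bars give the mean ± SD (n = 4). Each point lies below 0, and for 5 of the 8 genes the lowest point is the 24 h array against no siRNA.

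EIF1AX, which encodes eIF1A, a factor needed for scanning and start codon choice, had the lowest mean. Its log2 ratios were -0.58 and -0.76 against control siRNA (8 h, 24 h), with -0.41 and -0.96 against no siRNA (6 h, 24 h). Both 24 h arrays were thus lower than both early arrays, and the mean was -0.68 ± 0.24 (SD, n = 4). The gene rests on 1 feature. Its Y-linked copy EIF1AY is nearly identical in sequence, so the 2 genes may share signal, and probe sequences were not examined.

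The subunits of eIF2 lay closer to 0. EIF2S1 encodes the alpha subunit, the target of the stress kinases, and was at -0.50 and -0.30 against control siRNA (8 h, 24 h) and at -0.26 and -0.40 against no siRNA (6 h, 24 h). It had the second smallest spread of the 8 genes, with a mean of -0.36 ± 0.11 (SD, n = 4). EIF2S2, the beta subunit that contacts eIF2B and eIF5, read -0.32 and -0.37 against control siRNA and -0.12 and -0.68 against no siRNA, in the same order of times. Its mean of -0.37 ± 0.23 (SD, n = 4) was close to that of EIF2S1, but its SD was larger, with the highest and the lowest value both on arrays against no siRNA. As for EIF1AX, both 24 h arrays were below both early arrays in these averages. The features of EIF2S2 did not all keep that order. For the feature with the highest mean (-0.19), the 8 h value of -0.375 was below both 24 h values, -0.304 (control siRNA) and -0.254 (no siRNA). The others kept it.

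EIF2B1 encodes the alpha subunit of eIF2B, through which the exchange factor senses phosphorylated eIF2. With control siRNA as the reference it was at -0.44 (8 h) and -0.30 (24 h), and with no siRNA at -0.26 (6 h) and -0.44 (24 h). The 4 values formed 2 pairs that differed little, and the mean of -0.36 ± 0.09 (SD, n = 4) had the smallest spread of the set. The 3 features behind these averages disagreed. From 6 h to 24 h against no siRNA, 1 feature went from -0.36 to -0.89. The others went from -0.28 to -0.27 and from -0.15 to -0.16.

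Among the eIF3 subunits, EIF3B, a core scaffold protein of the complex, had the lowest mean, -0.49 ± 0.20 (SD, n = 4). Its values were -0.41 and -0.53 against control siRNA (8 h, 24 h) and -0.28 and -0.74 against no siRNA (6 h, 24 h). As for EIF1AX and EIF2S2, each 24 h array was below each early array in these averages. The features of EIF3B disagreed on this order. With control siRNA as the reference, the feature with the lower mean (-0.60) fell from -0.456 (8 h) to -0.750 (24 h). The other rose from -0.371 to -0.318. EIF3E, an eIF3 subunit also known as INT6, was at -0.44 and -0.34 against control siRNA and at -0.25 and -0.81 against no siRNA, with a mean of -0.46 ± 0.25 (SD, n = 4). Here the 24 h array against no siRNA stood below the 3 others, which lay between -0.44 and -0.25. EIF3H, a subunit with an MPN domain, was highest of the 8 genes at -0.31 ± 0.13 (SD, n = 4). Its lowest value was -0.50 at 8 h against control siRNA, and the others were -0.20 at 24 h with the same control and -0.23 and -0.32 against no siRNA (6 h, 24 h).

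GSPT1 encodes eRF3a, the GTPase of translation termination. It was at -0.63 and -0.48 against control siRNA (8 h, 24 h) and at -0.43 and -0.98 against no siRNA (6 h, 24 h), and the mean was -0.63 ± 0.25 (SD, n = 4). The -0.98 was the lowest log2 ratio of the 8 genes on any array, but that array is also the widest, and in units of each array's SD over all rows EIF1AX was lower at 24 h against control siRNA (-2.58) than GSPT1 was here (-2.26). A retrogene copy, GSPT2, is closely related in sequence and may share signal. In order of their means the genes ran EIF1AX, GSPT1, EIF3B, EIF3E, EIF2S2, EIF2B1, EIF2S1 and EIF3H, and no gene differed from its neighbour in this order by more than the SD of either.

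Single features gave the same sign almost throughout. Of 64 values over 16 features, 63 were below 0, and the exception was 0.16 for a feature of EIF2S2 at 6 h against no siRNA. Feature means ran from -0.82 to -0.19. The 2 features of EIF3E lay at -0.47 and -0.45, and the 2 measured ones of EIF2S1 at -0.40 and -0.32. Others differed more: GSPT1 had means of -0.82 and -0.44, EIF3B of -0.60 and -0.38, EIF2S2 between -0.57 and -0.19 and EIF2B1 between -0.58 and -0.24. The gene means above therefore hide differences of up to 0.38 between features of 1 gene. Features of 1 gene read the same RNA on the same arrays and are not replicates of the treatment. EIF1AX and EIF3H had 1 measured feature each.

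**Figure D2:**
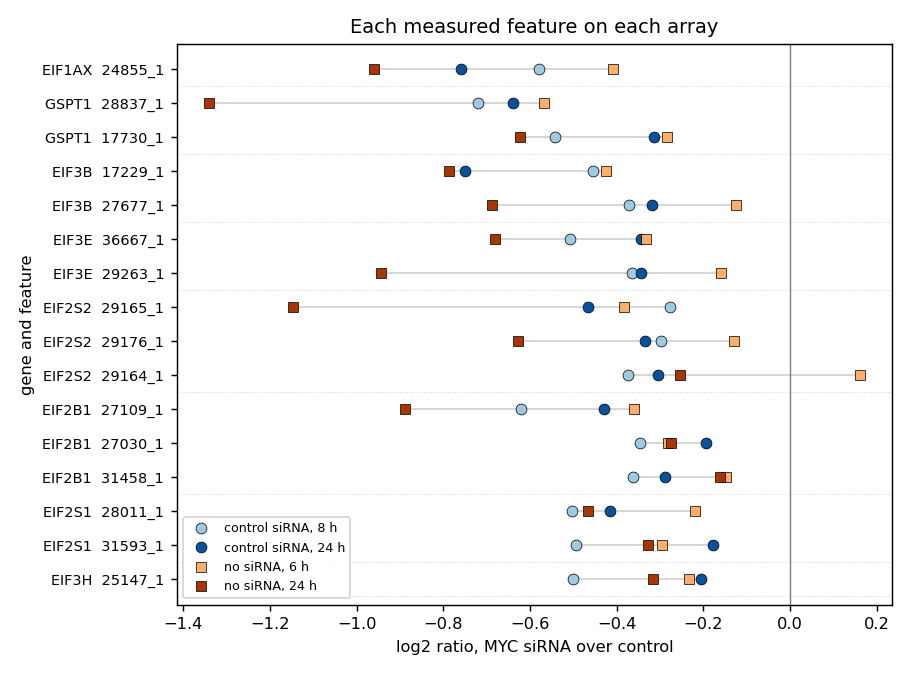
Log2 ratio of MYC siRNA over control (x axis) for the 16 features with values (y axis, grouped by gene), with 1 point per array and a grey line over their range. Of the points 63 of 64 lie left of 0, and the 24 h array against no siRNA is the lowest for 10 of the 16 features.

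MYC, the target of the siRNA, was at -0.94 and -0.35 against control siRNA (8 h, 24 h) and at -1.26 and -1.03 against no siRNA (6 h, 24 h). It rested on 4 features, with means from -1.23 to -0.56. These gave 14 values, 13 of them below 0, so the arrays did not all average the same features. On the 24 h array against control siRNA, where MYC lay nearest to 0, EIF1AX (-0.76), EIF3B (-0.53) and EIF2S2 (-0.37) were below their own 8 h value. The other 5 genes were above theirs. On the 6 h array against no siRNA, where MYC was lowest, 7 of the 8 genes had their highest value. That array also had the smallest SD over all rows (0.262), and the same count over all rows was not taken. With arrays scaled to a common spread, EIF2S1 (-0.31 at 6 h, -0.27 at 24 h) and EIF2B1 (-0.32, -0.30) were instead highest at 24 h against no siRNA. With 4 arrays no relation to the level of MYC was tested. Across all rows the SD of the log2 ratios was 0.416 on the 24 h array against no siRNA and between 0.262 and 0.298 on the 3 others. Features with a value numbered between 12028 and 12784 per array. These ratios give no expression levels, so marker genes could not check the cell type. Of the B-cell markers, 5 of 6 were measured (median of their mean log2 ratios 0.10). In limma 1 of them was higher and 0 lower, beside 5.56% and 10.2% of all rows. Measured T-cell markers were 4 of 4 (median 0.16), monocyte markers 1 of 4 (0.24) and erythroid markers 2 of 4 (0.004). Of these last 3 lists 0 were past the threshold in limma. The part of all these markers in the results below was not tested.

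Because the arrays differ in spread, the place of each gene among the 6798 rows of its array was also taken. The 8 genes had a median rank percentile of 4.60 and 10.8 against control siRNA (8 h, 24 h), where 0 is the lowest row of an array. For the arrays against no siRNA the median percentile was 15.5 (6 h) and 5.69 (24 h). By median rank the genes thus sat lowest on the 8 h array against control siRNA. Their median log2 ratio was -0.47 there and -0.71 at 24 h against no siRNA. Single genes differed: EIF1AX (0.816) and EIF3B (3.60) had their lowest percentile at 24 h against control siRNA. EIF2S2 (6.40) and EIF3E (3.72) had theirs at 24 h against no siRNA. EIF1AX stayed between percentiles 0.816 and 6.15 and GSPT1 between 1.07 and 5.56. EIF2S2 reached percentile 32.7 at 6 h against no siRNA, and EIF3H percentiles 23.1 and 24.8 on the 24 h arrays.

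**Figure D3:**
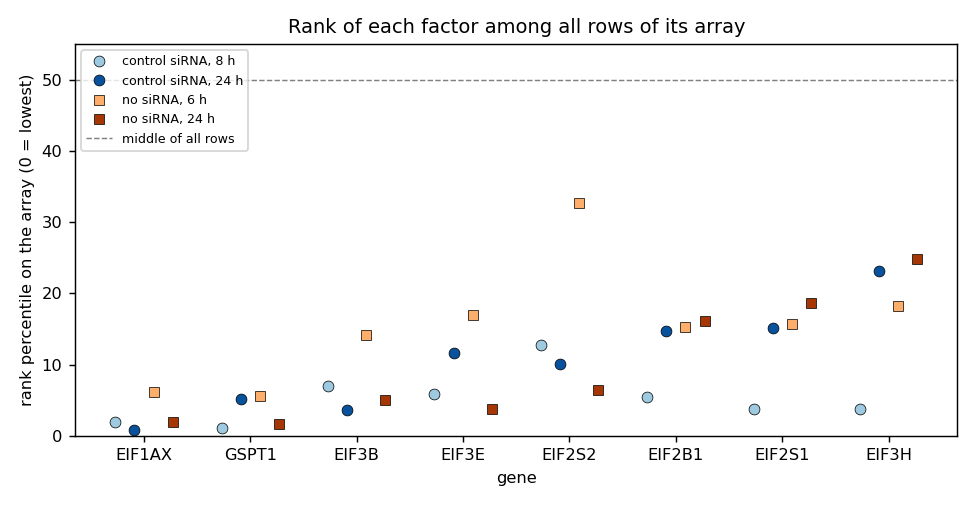
Rank percentile of each gene among the 6798 rows of an array (y axis, 0 is the lowest log2 ratio) for the 8 genes (x axis), with circles for arrays against control siRNA, squares for those against no siRNA and darker colour for 24 h. EIF1AX and GSPT1 stay below percentile 7 on each array, while EIF2S2 and EIF3H spread more widely, up to 32.7 and 24.8.

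Change with time was not used to pick the genes and was tested in limma with the kind of control as a second term. None of the 8 genes passed (0 of 8, beside 0.118% of all rows), and 0 of 8 had an unadjusted p under 0.05 (10.1% of all rows). EIF1AX had the largest difference, with a mean of -0.86 at 24 h against -0.49 on the early arrays, a change of -0.37 (SE 0.19, 95% interval -0.76 to 0.03, adjusted p = 0.543 in limma). EIF2S2 followed at -0.31 (-0.71 to 0.10) and EIF3B at -0.29 (-0.68 to 0.10). For EIF3E the difference was -0.24 (-0.65 to 0.18) and for GSPT1 -0.20 (-0.62 to 0.22). EIF2B1 was at -0.02 (-0.41 to 0.37), EIF2S1 at 0.03 (-0.36 to 0.42) and EIF3H at 0.11 (-0.29 to 0.50). The intervals are wide beside the differences, and each of the 8 includes 0. Of the 8 differences 6 lay below 0 (49.9% of all rows did). With the arrays scaled to a common spread it was 5, and the share of all rows was not taken. Scaled, they were -0.20 for EIF2S2, -0.19 for EIF1AX, -0.16 for EIF3B, -0.09 for EIF3E and -0.00045 for GSPT1, and EIF2B1 turned to 0.09. With 1 residual degree of freedom they rest mostly on the spread pooled over all rows.

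Taken separately by kind of control, the time difference was not alike. Against no siRNA, 8 of 8 genes were lower at 24 h than at 6 h (53.9% of all rows were), with differences from -0.57 to -0.08 on the log2 scale. The steps were -0.57 for EIF3E, -0.56 for EIF2S2 and for GSPT1, -0.55 for EIF1AX and -0.46 for EIF3B, and smaller for EIF2B1 (-0.18), EIF2S1 (-0.14) and EIF3H (-0.08). Against control siRNA 5 of the 8 were higher at 24 h than at 8 h (54% of all rows were), namely EIF3H (0.30), EIF2S1 (0.20), GSPT1 (0.15), EIF2B1 (0.14) and EIF3E (0.09). These 5 moved in opposite directions with the 2 controls, as did 26.7% of all rows (lower at 24 h against no siRNA and higher at 24 h against control siRNA). The other 3 were lower, with differences of -0.18 for EIF1AX, -0.12 for EIF3B and -0.05 for EIF2S2. Of the 16 features, 15 were lower at 24 h against no siRNA, and 4 were lower and 12 higher at 24 h against control siRNA. MYC itself was higher at 24 h in both, by 0.59 against control siRNA and 0.22 against no siRNA. The 24 h array against no siRNA had the widest spread of values, and some directions depend on how the arrays are scaled. With scaled arrays, a view of these steps added after seeing the data, 5 of 8 were lower at 24 h against no siRNA (50% of all rows were), and EIF2S1 (0.05), EIF2B1 (0.02) and EIF3H (0.07) turned upward. Against control siRNA the same count of 5 were higher, so that 2 genes, EIF3E and GSPT1, kept opposite signs with the 2 controls. For these 2 scaled counts the share of all rows was not taken. Each of these steps is the difference of 2 arrays, without a replicate, and whether the steps differ between controls was not tested.

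**Figure D4:**
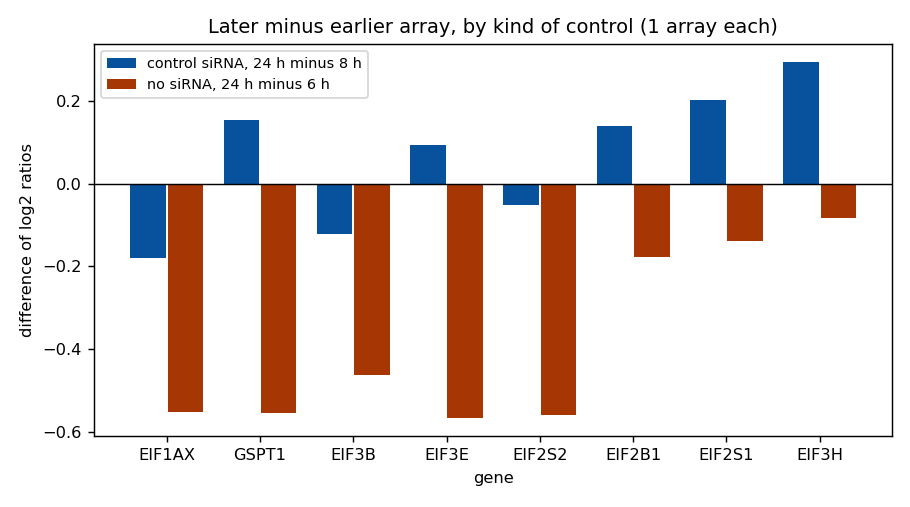
Difference of log2 ratios between the 24 h array and the early array of the same control (y axis) for the 8 genes (x axis), with blue bars for control siRNA (24 h minus 8 h) and brown bars for no siRNA (24 h minus 6 h), each from 1 array per time. All 8 brown bars point down, to -0.57 at most, while 5 of the blue bars point up, to 0.30 at most. With arrays scaled to a common spread, not drawn here, 5 of the 8 no siRNA differences are below 0, and those of EIF2S1, EIF2B1 and EIF3H turn upward.

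Set against the kind of control, averaged over times, 0 of 8 genes passed in limma (beside 0.0883% of all rows) and 0 of 8 had an unadjusted p under 0.05 (10.1% of all rows). Differences, no siRNA minus control siRNA, ran from -0.15 (GSPT1, 95% interval -0.57 to 0.27) to 0.08 (EIF3H, -0.32 to 0.47). Of the 8, 5 were below 0 (53.5% of all rows were). With scaled arrays 0 of 8 were below 0 (share of all rows not taken), from 0.006 for EIF3E and 0.01 for GSPT1 to 0.16 for EIF2S1. Unscaled, the averages hid opposite signs at the 2 times. On the early arrays 8 of 8 genes were higher against no siRNA than against control siRNA (51% of all rows were), by 0.14 to 0.27. At 24 h 8 of 8 were lower (56.1% of all rows were), with differences from -0.10 for EIF2S1 to -0.50 for GSPT1. Scaling kept 8 of 8 higher on the early arrays, where the share of all rows after scaling was not taken. At 24 h it left 3 of 8 lower (47.5% of all rows were), EIF2S2 (-0.05), EIF3E (-0.18) and GSPT1 (-0.16), and turned the other 5 upward. The early arrays also differ in time, 6 h against 8 h, and the arrays of the 2 controls carry experiment numbers in separate ranges, so control, experiment and early time point cannot be told apart.

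The rest of the initiation and release machinery was read from a list of 58 other factors, of which 19 were measured on all 4 arrays, 3 on some and 36 not analysed here. Of the 19, 1 fell, 0 rose and 18 did not pass (limma over all rows, beside 10.2% of rows lower and 5.56% higher), and 6 had an unadjusted p under 0.05, beside 35.4% of all rows. The median of their mean log2 ratios was -0.15, with 12 of 19 below 0. The 8 genes above had been set apart with their values known, so this count says nothing of how the 2 groups differ. DENR, which with MCTS1 helps recycle small ribosomal subunits and restart initiation, was the gene that fell. It was at -0.63 and -0.35 against control siRNA (8 h, 24 h) and at -0.08 and -0.42 against no siRNA (6 h, 24 h), with a mean of -0.37 ± 0.22 (SD, n = 4, limma adjusted p = 0.0409). Its 3 features had means from -0.67 to -0.23 and did not all have a value on each array. With complete features the mean was -0.33 (limma adjusted p = 0.0468). DENR did not pass when any 1 array was left out (mean between -0.47 and -0.29, limma adjusted p between 0.0552 and 0.133).

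**Figure D5:**
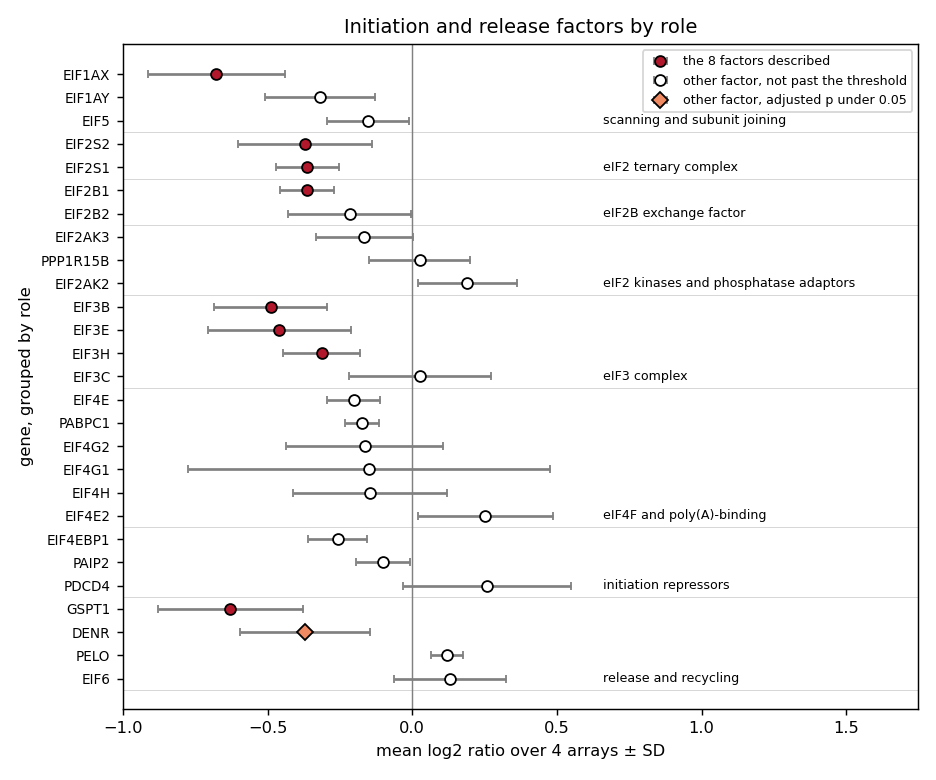
Mean log2 ratio over the 4 arrays with its SD (x axis) for the 8 genes described and 19 other initiation and release factors (y axis, grouped by role). Filled circles are the 8 genes, the diamond is DENR and open circles are factors not past an adjusted p of 0.05 in limma, which spread from -0.32 to 0.26.

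No other factor of the list passed, and the groups are described here by the measured gene with the largest absolute mean. In scanning and subunit joining, EIF1AY averaged -0.32 ± 0.19 (SD, n = 4, limma adjusted p = 0.0527), just outside the threshold. It passed with complete features and with centred or scaled arrays (limma adjusted p between 0.0349 and 0.0497). As said for EIF1AX, the 2 genes may share signal, so EIF1AY may not be a separate reading. Its values were -0.12 and -0.25 against control siRNA (8 h, 24 h) and -0.33 and -0.57 against no siRNA (6 h, 24 h). EIF3H, the highest of the 8 genes, averaged -0.31. EIF2B2, the beta subunit of eIF2B, averaged -0.22 ± 0.21 (SD, n = 4). In the eIF3 complex EIF3C was at 0.03 ± 0.25 (SD, n = 4), with feature means from -0.18 to 0.33, and its near-identical copy EIF3CL may share its signal. EIF2AK2, the eIF2 kinase PKR, averaged 0.19 ± 0.17 (SD, n = 4). Of the 6 factors around the cap and the poly(A) tail, EIF4E2, a cap-binding protein known for repression, had the largest mean, 0.25 ± 0.23 (SD, n = 4), and 5 of the 6 lay below 0. Its 2 features disagreed, with means of -0.16 and 0.48, and it rose when features lacking a value on any array were left out (0.48, limma adjusted p = 0.0284). PDCD4, an inhibitor of the helicase eIF4A, averaged 0.26 ± 0.29 (SD, n = 4), with 0.47 and 0.54 on the 24 h arrays and -0.01 and 0.03 on the early ones. For time and for the kind of control, 0 of the 19 passed in limma, beside 0.118% and 0.0883% of all rows. An unadjusted p under 0.05 in these fits was found for 2 and 1 of the 19, beside 10.1% of all rows in each.

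The mean profile of the 8 genes was -0.48 and -0.41 against control siRNA (8 h, 24 h) and -0.28 and -0.67 against no siRNA (6 h, 24 h). Among 3946 other named genes, the 5 nearest to it by root mean square difference over the 4 arrays were IARS1, LAMTOR3, MRE11, PDCD2 and ADK. IARS1, the isoleucyl-tRNA synthetase gene, differed by 0.0317 and averaged -0.48 over 6 features. LAMTOR3, of the Ragulator complex on lysosomes, differed by 0.0322, the DNA repair nuclease gene MRE11 by 0.0491, PDCD2 by 0.0493 and the adenosine kinase gene ADK by 0.0591. LAMTOR3 and MRE11 rested on 1 feature each. The 8 genes themselves lay between 0.0782 and 0.243 from their mean profile. These distances describe 4 arrays and carry no test.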

How the data were processed

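RNA of OCI-Ly10 cells (50 ug per channel, per the labels) was compared on 4 arrays with 2 channels. The values are the authors' deposited log2 ratios, 1 per feature and array. The sources used here state neither log base and direction nor background correction and normalization. Base 2 and Cy5 over Cy3 were taken from the values and the labelled dyes.

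Gene symbols came from the platform annotation, brought up to date with RefSeq names (GRCh38.p14) through the Entrez ID. A match was found for 10124 of 15154 features. Features of 1 symbol were averaged per array, which gave 6798 rows with 4 values, 3954 of them named genes. Rows were fitted with limma 3.58.1 in R 4.3.3 (lmFit and eBayes): the mean against 0, and time and kind of control as 2 terms of 1 model. Benjamini-Hochberg adjustment ran over all rows, and calls needed an adjusted p under 0.05. The code was tested on simulated data.

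Prior degrees of freedom were 6.31 for the mean (3 residual) and 17.5 for time and control (1 residual). The labels name no separate cultures, so the p-values reflect only the spread among the 4 arrays, which may be technical, and their number limits the precision. Genes and lists were chosen with earlier results of these data known, and motifs other than the E-box forms after the windows were seen. Besides the 8 genes, named genes were MYC, other factors past the threshold or, in a role without one, with the largest absolute mean, and the 5 nearest profiles. EIF3CL, GSPT2 and MCTS1 are named as copies or partners, without values. Alternatives were another feature summary, complete features, single features, centring, scaling, robust eBayes, other terms and leaving out each array.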

Additional observations from a re-analysis of the deposited data

Results flagged for a closer look

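The time difference had opposite signs against the 2 kinds of control for 5 of the 8 genes, lower at 24 h than at 6 h against no siRNA and higher at 24 h than at 8 h against control siRNA. The step against no siRNA minus that against control siRNA was -0.71 for GSPT1, -0.66 for EIF3E, -0.38 for EIF3H, -0.34 for EIF2S1 and -0.32 for EIF2B1 on the log2 scale. Of all rows 26.7% showed these 2 signs. With arrays scaled to a common spread, EIF3E and GSPT1 kept the opposite signs and EIF2S1, EIF2B1 and EIF3H did not. The difference was not tested, since each step rests on 1 array per time.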

How the results depend on the processing

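The median of the 8 gene means, -0.41, lay between -0.41 and -0.40 with the median over features, complete features, centred and scaled arrays, and between -0.49 and -0.35 with 1 array left out. Each of the 8 means stayed below 0 in these settings. The contrast of the fit over all rows is more fragile. Leaving out 1 array left 0 to 310 rows lower and 0 to 131 higher, against 695 and 378, and 3, 0, 0 and 2 of the 8 genes past the threshold (8 h and 24 h against control siRNA, then 6 h and 24 h against no siRNA left out) (8 of 8 had an unadjusted p under 0.05 each time, as had 26.4% to 32.1% of all rows). These are counts of the contrast that chose the genes, and nothing is read from them. Fewer arrays leave fewer residual degrees of freedom. Single features gave 1251 lower and 720 higher of 10161, and time and control as terms 1124 and 856.

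Among the other factors 2 fell with complete features, with centred and with scaled arrays (DENR and EIF1AY), and 2 over single features (of DENR and EIF4E). EIF4E2 was the 1 that rose with complete features and over single features. With an array left out 0 fell (range 0 to 0). For time, 98 rows passed with the median over features, 26 with complete features, 61 with centred and 0 with scaled arrays, 5 with robust eBayes and 0 with time as the only term, against 8. For the kind of control the counts were 162, 37, 87 and 0, and 0 with control as the only term, against 6. The cause was not tested. The number of the 8 genes past the threshold was 0 for time and for control in each of these settings. Leaving out an array from the time and control fits leaves no residual degrees of freedom, so those values have no test. The kind of control stands as a block in the time fit. Scaling, tried on steps between single arrays after seeing the data, left 5 of the 8 genes lower at 24 h against no siRNA, against 8, and 3 lower against no siRNA than against control siRNA at 24 h, against 8.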

Other observations

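Of the other factors, 3 had values on some arrays. PPP1R15A, which guides a phosphatase to eIF2, was at -0.27 and -0.25 against control siRNA (8 h, 24 h) and -0.22 at 6 h against no siRNA. HBS1L, a ribosome rescue factor related to eRF3, was at -0.01 and 0.45 against no siRNA (6 h, 24 h). EIF3M, an eIF3 subunit, had 1 value, -0.03 at 24 h against control siRNA.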
